A study of Mus musculus with 13 samples.

Results

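The 52 interferon-stimulated genes described here were taken by symbol from a gene-level count table of purified mouse glomeruli, the filtering units of the kidney, in which 46958 genes are listed. All 52 were found, and all 52 were among the 16738 genes kept for testing. The members were chosen for being known interferon targets and not by their values, but it was known beforehand that one wild-type pool was high for them. Every library is from mice aged 6 months on a mixed C57/BL6, 129/SV and BALB/c background, and the glomeruli were isolated with magnetic beads. The 13 libraries fall into 3 genotypes. LCDD (4 libraries, labelled kFRA) is the light-chain genotype, DH-LMP2A has 4 libraries, and WT has 5 libraries. In published lines named DH-LMP2A, the viral membrane protein LMP2A is expressed from the immunoglobulin heavy chain locus in B cells, in place of a heavy chain. The labels used here do not describe that allele and do not say whether the LCDD mice carry it too. Each library pooled 3 mice, except WT 3, WT 4 and WT 5, which are single mice. Titles carry 1 of 4 numeric codes, called A to D here, whose meaning is not stated: LCDD 1 to 4 and DH-LMP2A 1 to 4 have codes A, B, C and D, WT 1 has A, WT 2 has C, and WT 3 to 5 have D. The series is titled as a study of toxicity of monoclonal free light chains on glomeruli, and the comparison with WT and with DH-LMP2A asks which glomerular transcripts differ in the light-chain mice.

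Interferons are secreted proteins that cells release on sensing foreign or misplaced nucleic acid. Type I interferons bind the receptor pair Ifnar1 and Ifnar2, the kinases Jak1 and Tyk2 phosphorylate transcription factors that include Stat2, and Stat2 acts with Irf9 at the interferon-stimulated response element (ISRE). Interferon gamma acts through Ifngr1 and Ifngr2 and on genes with a gamma-activated site (GAS). The induced genes encode sensors, antiviral enzymes and membrane proteins, GTPases, ubiquitin-like modifiers, and factors such as Irf7 and Usp18 that amplify or end the response. In kidney, such transcripts are known from lupus nephritis and other glomerular inflammation.

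Promoter sequences are shown because many of the members with a promoter window hold the letters of a response element that was not used to choose them. RefSeq promoter windows (GRCm38.p6, 250 bases before to 50 after a start) were found for 40 of the 52 members. The ISRE was searched on both strands as GAAA, any 2 bases and GAAA again, and 21 of the 40 members held it in at least 1 window (52.5%), against 3.99% of the 27025 genes with windows. GAS was searched as TTC, any 3 bases and GAA, which reads the same on both strands, and was found in 12 of the 40 (30.0%) against 9.55% of all genes. In 2 places a GAS match overlapped an ISRE match. Every one of the 7 interferon-inducible GTPases with a window held the ISRE letters, as did 3 of 4 IFIT genes and both sensors with a window. The letters were found in 3 of 6 genes of the OAS group, 3 of 5 of the Mx and membrane group, 1 of 4 transcription factors, 1 of 3 of the ISG15 group, 1 of 7 other induced genes and 0 of 2 of the PARP group. The 12 members with no window were Ifi27l2a, Ifi27, Zbp1, Iigp1, Usp18, Parp9, Mx2, Mx1, Rtp4, Oas2, Parp14 and Dhx58. A letter match describes the window and does not show a bound site. The 160 bases before the start of 5 genes follow, 5′ to 3′ on the gene's strand with ISRE matches in capitals. Those of Isg15 lie at chr4:156200819-156200978 (minus strand), of Ifit1 at chr19:34640729-34640888 (plus strand), of Ifit3 at chr19:34583369-34583528 (plus strand), of Gbp3 at chr3:142559884-142560043 (plus strand) and of Irgm1 at chr11:48871421-48871580 (minus strand).
Isg15: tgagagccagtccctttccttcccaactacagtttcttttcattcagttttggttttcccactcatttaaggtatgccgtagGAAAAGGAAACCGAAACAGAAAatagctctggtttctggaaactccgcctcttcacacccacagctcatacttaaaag
Ifit1: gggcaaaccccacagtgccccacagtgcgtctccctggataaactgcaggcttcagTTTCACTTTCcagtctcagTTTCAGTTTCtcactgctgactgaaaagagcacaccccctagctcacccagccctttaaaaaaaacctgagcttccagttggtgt
Ifit3: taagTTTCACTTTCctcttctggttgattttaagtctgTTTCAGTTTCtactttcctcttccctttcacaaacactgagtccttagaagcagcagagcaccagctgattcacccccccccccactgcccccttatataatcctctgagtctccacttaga
Gbp3: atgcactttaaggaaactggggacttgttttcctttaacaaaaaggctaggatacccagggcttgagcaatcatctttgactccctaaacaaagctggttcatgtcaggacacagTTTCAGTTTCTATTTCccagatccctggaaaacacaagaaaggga
Irgm1: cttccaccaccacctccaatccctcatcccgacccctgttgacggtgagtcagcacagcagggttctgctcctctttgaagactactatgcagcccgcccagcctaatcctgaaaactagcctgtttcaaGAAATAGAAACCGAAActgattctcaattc
In Isg15 3 matches run into each other from 78 bases before the start, and in Gbp3 and Irgm1 2 matches overlap nearer to it. In Ifit1 and Ifit3 the matches lie apart, on the opposite strand. Among the members with a window, the difference of WT 2 from the other WT libraries had a median of 1.66 on the log2 scale in the 21 with an ISRE match and 1.18 in the 19 without one.

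Library totals ran from 16687509 to 30587890 counts, and WT 2 had the lowest. Levels below are counts scaled to a common library size (CPM) on effective library sizes from the trimmed mean of M-values (TMM), and log2 differences between libraries use a prior count of 2. Genotypes were compared with edgeR's quasi-likelihood test over all 13 libraries, with Benjamini-Hochberg adjustment over the 16738 tested genes and a threshold of 0.05. A gene past that threshold is called, and fold changes are given with the standard error (SE) of that fit. The same-code LCDD and DH-LMP2A libraries deviated together from their genotype means (correlations of 0.153 to 0.593 over genes). The fit with the title code as a block is therefore given beside this comparison where it changes a call. Some libraries of different codes deviated together too, such as LCDD 2 with DH-LMP2A 1 (0.524) and LCDD 3 with DH-LMP2A 4 (0.458). Nothing says that libraries of a code came from one preparation.

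Across the 13 libraries, 1 library stood apart for this gene set, the WT pool of code C (WT 2). Its level exceeded the mean of the other 4 WT libraries by more than 2-fold for 37 of the 52 members, against 4.79% of all tested genes. The median member difference was 1.59 on the log2 scale, and the median over all tested genes was 0.02. WT 2 was above the mean of the other WT libraries for 51 members and was the highest WT library for 50. It was the highest of all 13 libraries for 37 members, a position it held for 15.7% of tested genes. The next library by this measure was LCDD 1 (code A), which was more than 2-fold above the other LCDD libraries for 12 members, against 5.72% of tested genes, and had a median difference of 0.71. LCDD 1 was the highest of the 13 libraries for 12 members, against 14.7% of tested genes. The remaining 11 libraries had member medians between -0.51 in WT 1 and 0.39 in DH-LMP2A 1. For WT 1, WT 3, WT 4 and WT 5 the reference mean includes WT 2, which lowers their values. Their median log2 CPM over the members was 5.09 in WT 1 and 5.15 to 5.31 in WT 3 to 5. With 1 library there is no replicate of the WT 2 difference and no test, and all comparisons with WT are therefore given with and without it.

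**Figure D1:**
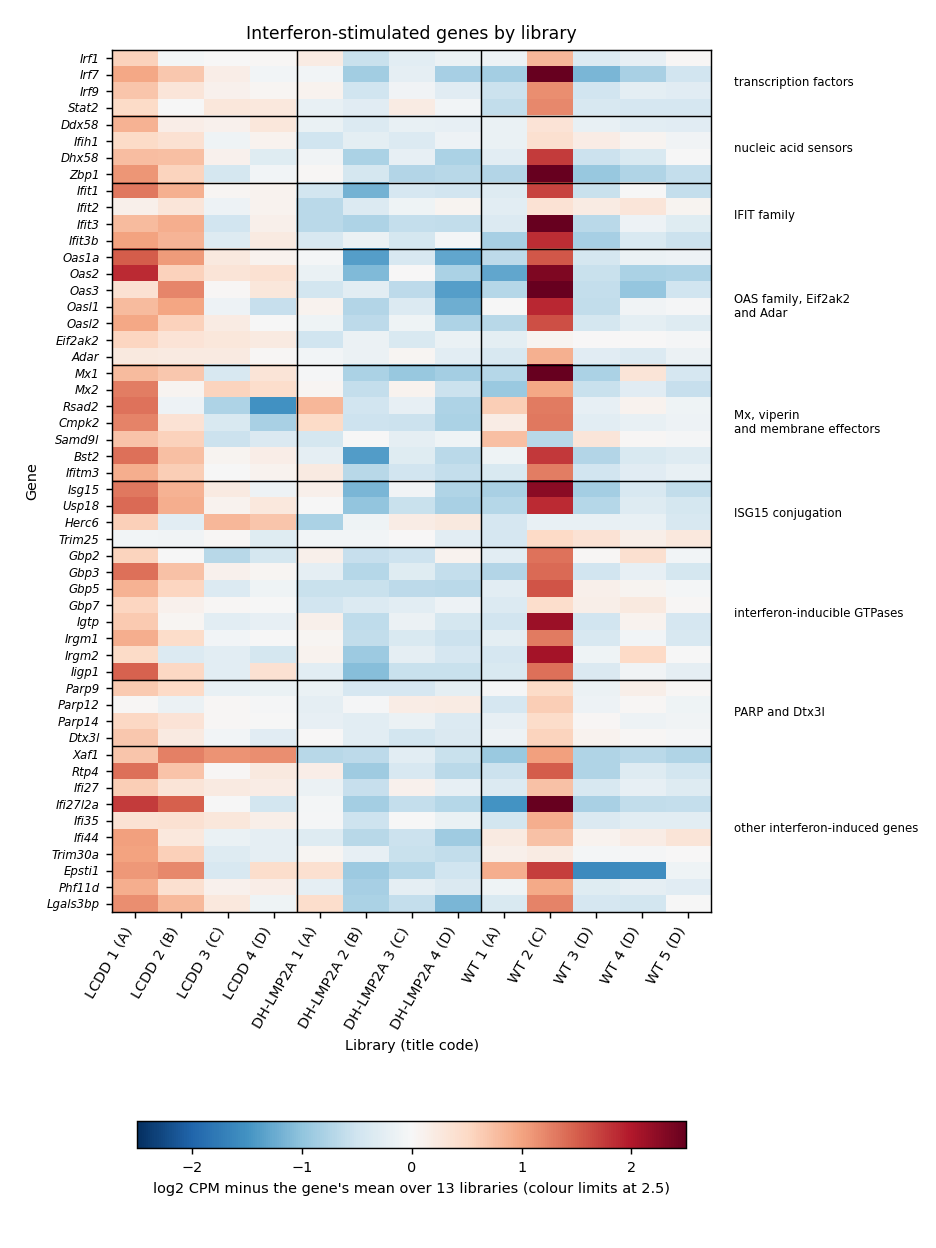
Each row is 1 of the 52 interferon-stimulated genes, grouped by role, and each column is a library with its title code in brackets. Colour is the log2 CPM minus the gene's mean over the 13 libraries, and the red columns are WT 2, highest for 37 genes, and LCDD 1, highest for 12.

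**Figure D2:**
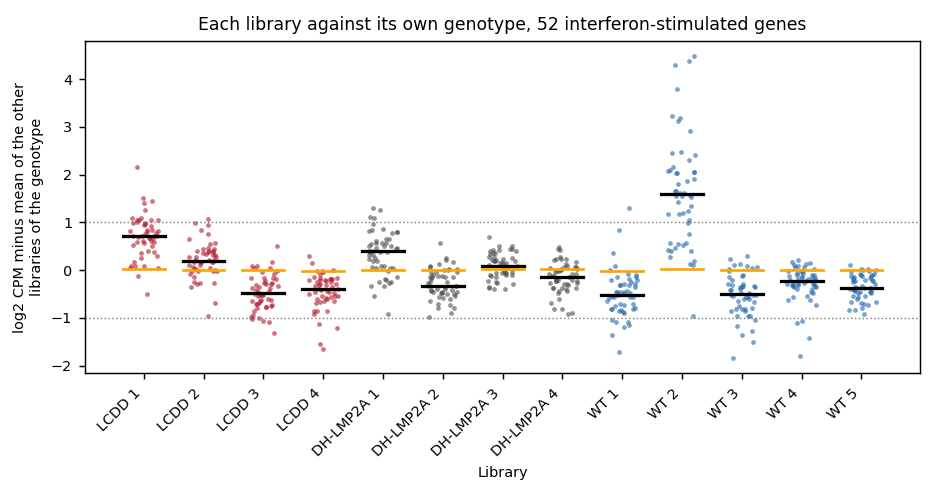
Each point is 1 of the 52 genes, plotted as the log2 CPM of a library minus the mean of the other libraries of its genotype (dotted lines at 1 and -1). Black bars mark the median of the 52 genes and orange bars that of all tested genes: the black bar is at 1.59 for WT 2 and 0.71 for LCDD 1, and the orange bars lie near 0.

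The transcription factors ranged widely in WT 2. Irf7, the factor that amplifies type I interferon production, was measured at 67.3, 54.7, 38.7 and 33 CPM in LCDD 1 to 4, 32.7, 18.7, 29.3 and 19.4 in DH-LMP2A 1 to 4, and 19, 407, 15.6, 19.7 and 24.7 in WT 1 to 5. WT 2 stood 4.38 above the mean of the other WT libraries on the log2 scale, and without it the 4 LCDD libraries all exceeded every DH-LMP2A and WT library. Stat2, which acts with Irf9 in the ISRE-binding complex, was at 136, 96.4, 119 and 116 CPM in LCDD 1 to 4, 85.4, 80.3, 113 and 92.6 in DH-LMP2A 1 to 4, and 64, 223, 73.4, 72.8 and 72.7 in WT 1 to 5. LCDD and DH-LMP2A overlapped, and without WT 2 every LCDD library exceeded every WT library. Irf1, an activator induced strongly by interferon gamma, was at 123, 81, 84 and 85.1 CPM in LCDD 1 to 4, 95.3, 56.8, 69.4 and 75.3 in DH-LMP2A 1 to 4, and 76.5, 148, 65.4, 72.4 and 84.9 in WT 1 to 5. LCDD 1 and WT 2 were its 2 highest libraries and the genotypes overlapped. Irf9 in WT 2 was at 174 CPM against 54 to 66.1 in the other WT libraries, and LCDD libraries held 80.4 to 126 CPM.

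Among the sensors, Ddx58 (RIG-I) and Ifih1 (MDA5) detect viral RNA in the cytoplasm. Ddx58 was measured at 150.0, 91.4, 87.7 and 99.9 CPM in LCDD 1 to 4, 72.9, 64.8, 71.5 and 71.2 in DH-LMP2A 1 to 4, and 72.7, 104, 71.6, 68 and 67.4 in WT 1 to 5. The LCDD libraries all lay above the DH-LMP2A libraries, and LCDD 1 was the highest of the 13. Ifih1 was at 53.6, 49.8, 35.5 and 40.7 CPM in LCDD 1 to 4, 27.4, 32.4, 30.4 and 35.1 in DH-LMP2A 1 to 4, and 34.1, 51, 43.7, 40.1 and 36.1 in WT 1 to 5. Its LCDD libraries also lay above DH-LMP2A, by a narrower margin, and overlapped WT. Zbp1, a sensor of Z-form nucleic acid, had the largest WT 2 difference of all members (4.49 on the log2 scale), at 26.8 CPM against 0.961 to 1.26 in the other WT libraries. It was chosen for naming after its values were seen, as were the other genes named below for their size alone. Dhx58, a regulator of both RNA sensors, was at 31.3 CPM in WT 2 and 5.28 to 15.9 in the other 12 libraries.

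The IFIT proteins bind foreign RNA and block its translation. Ifit1 was measured at 50.9, 38, 21.3 and 21.9 CPM in LCDD 1 to 4, 14.9, 8.97, 15.2 and 14.7 in DH-LMP2A 1 to 4, and 16.3, 66, 13.9, 20.3 and 13.5 in WT 1 to 5. All LCDD libraries exceeded all DH-LMP2A libraries, and DH-LMP2A 2 was the lowest library. Ifit3 was at 65.2, 70.8, 27.1 and 41 CPM in LCDD 1 to 4, 23.6, 22, 24.9 and 24.5 in DH-LMP2A 1 to 4, and 29.5, 255, 23.4, 34.4 and 30.3 in WT 1 to 5. WT 2 was 3.13 above the other WT libraries on the log2 scale, and LCDD 1 and LCDD 2 were higher than LCDD 3 and LCDD 4. Ifit2 was at 59.1, 66.4, 49.6 and 57.3 CPM in LCDD 1 to 4, 34.1, 42.5, 50.2 and 56.8 in DH-LMP2A 1 to 4, and 44.7, 69.3, 62.5, 66.9 and 56.5 in WT 1 to 5, and its groups overlapped. The paralogous genes Ifit3 and Ifit3b share sequence, as do members of the Oas and Gbp families, and how the counting treated reads that match both is not given in the sources used here.

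Among the RNA-directed enzymes, Eif2ak2 (PKR) halts translation when it binds double-stranded RNA. Eif2ak2 was measured at 61.5, 53.7, 52 and 49.5 CPM in LCDD 1 to 4, 30.2, 38.5, 32.8 and 37.7 in DH-LMP2A 1 to 4, and 36.1, 44.5, 42.9, 43.1 and 41.6 in WT 1 to 5. It was the exception to the WT 2 pattern in this group, with a WT 2 difference of 0.13 on the log2 scale. All 4 LCDD libraries exceeded all 9 other libraries. Adar, which edits adenosine in double-stranded RNA, was at 107, 105, 105 and 91.5 CPM in LCDD 1 to 4, 86.5, 81.7, 93.9 and 75.3 in DH-LMP2A 1 to 4, and 67.9, 166, 73.8, 71.3 and 81.7 in WT 1 to 5. LCDD and DH-LMP2A overlapped. Oasl2, of the 2′-5′ oligoadenylate synthetase family, was at 99.5, 75.4, 59 and 50.3 CPM in LCDD 1 to 4, 47.2, 32.1, 47.4 and 29.8 in DH-LMP2A 1 to 4, and 31.5, 155, 37.6, 42.7 and 40.8 in WT 1 to 5, and its LCDD libraries lay above DH-LMP2A. Oas3 was low outside WT 2, at 0.313 to 2.33 CPM in the other 12 libraries against 12.5 in WT 2.

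The membrane and Mx effectors include the most abundant member. Ifitm3, which blocks viral fusion, was at 559, 457, 296 and 319 CPM in LCDD 1 to 4, 348, 184, 215 and 199 in DH-LMP2A 1 to 4, and 230.4, 727, 213, 247 and 262 in WT 1 to 5. Per kilobase of summed exon length its mean level was 602 CPM in LCDD, 349 in DH-LMP2A and 496 in WT, the highest of the 52 in each genotype. Bst2 (tetherin), which holds budding virus at the membrane, was at 178, 115, 71.3 and 76.3 CPM in LCDD 1 to 4, 58.7, 26, 54.9 and 42.8 in DH-LMP2A 1 to 4, and 62.9, 233, 41, 52.2 and 54.3 in WT 1 to 5. Every LCDD library exceeded every DH-LMP2A library. Mx1, a dynamin-like GTPase, was at 1.73, 1.58, 0.7 and 1.22 CPM in LCDD 1 to 4, 0.935, 0.519, 0.457 and 0.492 in DH-LMP2A 1 to 4, and 0.55, 7.29, 0.521, 1.21 and 0.689 in WT 1 to 5. Mx1 was low throughout, and WT 2 was its highest library. Its neighbour Mx2, at 17.1 CPM in WT 2 and 21.1 in LCDD 1, is annotated as a polymorphic pseudogene, the one member that is not annotated as protein coding. Rsad2 (viperin) was highest in LCDD 1 at 169 CPM against 23 to 60.1 in the other LCDD libraries, the largest LCDD 1 difference among the members (2.16 on the log2 scale). Samd9l was the one member lower in WT 2, at 28.2 CPM against 44.7 to 76.7.

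In the ISG15 group, Isg15 is the ubiquitin-like modifier and Usp18 the protease that removes it and damps receptor signalling. Isg15 was measured at 29.3, 21.4, 13.7 and 10.8 CPM in LCDD 1 to 4, 12.8, 5.26, 11 and 6.94 in DH-LMP2A 1 to 4, and 6.7, 56.3, 6.45, 8.86 and 7.67 in WT 1 to 5. WT 2 was highest, LCDD 1 and LCDD 2 came next, and LCDD overlapped DH-LMP2A. Usp18 was at 53.2, 37, 21 and 23.8 CPM in LCDD 1 to 4, 19.6, 9.89, 13.5 and 11.2 in DH-LMP2A 1 to 4, and 12, 71.8, 12.1, 15.8 and 14.5 in WT 1 to 5. The LCDD libraries lay above DH-LMP2A and above the other 4 WT libraries. Herc6, the mouse ISG15 ligase, was at 35.8, 19.7, 42.3 and 38.1 CPM in LCDD 1 to 4, 13.5, 21.9, 27.1 and 28 in DH-LMP2A 1 to 4, and 17.6, 20.8, 20.7, 20.9 and 17.9 in WT 1 to 5. WT 2 was not high for Herc6, and LCDD 2 was the low library of its genotype. Trim25, a RIG-I ubiquitin ligase, was at 121, 119, 129 and 103 CPM in LCDD 1 to 4, 120.4, 120.3, 128 and 105 in DH-LMP2A 1 to 4, and 95, 178, 162, 141 and 152 in WT 1 to 5, with LCDD and DH-LMP2A overlapping in full.

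The interferon-inducible GTPases attack membranes around intracellular pathogens. All 8 were higher in WT 2 than in the other WT libraries, 7 of them by more than 2-fold. Gbp7, the exception, was measured at 85.9, 63, 59.8 and 58.6 CPM in LCDD 1 to 4, 42.2, 46.6, 49 and 54.1 in DH-LMP2A 1 to 4, and 46.4, 80.3, 65.1, 69.8 and 60.2 in WT 1 to 5. LCDD libraries lay above DH-LMP2A libraries and overlapped WT. Irgm2 was at 69.3, 39.5, 41.7 and 36.7 CPM in LCDD 1 to 4, 53.1, 26.7, 42.8 and 37.4 in DH-LMP2A 1 to 4, and 37.2, 213, 46.4, 71 and 49.4 in WT 1 to 5. Its groups overlapped, and 1 library, WT 2, was apart. Igtp and Irgm2 overlap on the same strand of chromosome 11, so reads of the shared stretch may be split or dropped. In the poly-ADP-ribose polymerase group, Parp14 was at 172, 152, 121 and 119 CPM in LCDD 1 to 4, 103, 99, 108 and 93.6 in DH-LMP2A 1 to 4, and 103, 164, 122, 109.9 and 113 in WT 1 to 5, and every LCDD library exceeded every DH-LMP2A library. Parp12 was at 115, 101, 115 and 109 CPM in LCDD 1 to 4, 95.8, 109, 127 and 129 in DH-LMP2A 1 to 4, and 83.6, 171, 103, 114 and 104 in WT 1 to 5. No member of this group was more than 2-fold higher in WT 2. Of the other induced genes, Ifi27 was at 174, 141, 131 and 128 CPM in LCDD 1 to 4, 102, 75.8, 121 and 97.3 in DH-LMP2A 1 to 4, and 88.5, 188, 85.8, 97.8 and 89.5 in WT 1 to 5. Lgals3bp, a secreted glycoprotein, was at 396, 312, 212 and 165 CPM in LCDD 1 to 4, 240.0, 103, 118 and 80.7 in DH-LMP2A 1 to 4, and 136, 421, 133, 129 and 177 in WT 1 to 5. Both were high in WT 2 and LCDD 1, and Ifi27 was higher in every LCDD library than in every DH-LMP2A library.

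**Figure D3:**
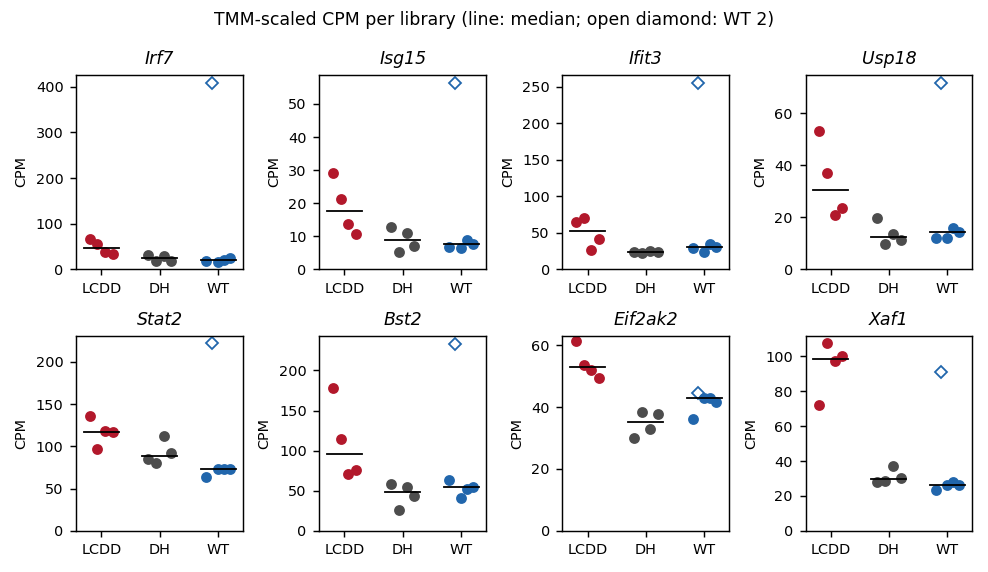
CPM of 8 genes by genotype, 1 point per library, with the median as a line and WT 2 as an open diamond (axes start at 0). WT 2 is far above the other WT libraries for Irf7 (407 CPM against 15.6 to 24.7) but not for Eif2ak2 (44.5 against 36.1 to 43.1), and the LCDD points of Xaf1 (72.2 to 108) lie apart from DH-LMP2A (27.7 to 37.0).

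Between LCDD and DH-LMP2A, 50 of the 52 members had higher fitted levels in LCDD, with a median log2 fold change of 0.79 (-0.01 over all tested genes), and 1 was called. That gene was Eif2ak2, higher in LCDD by 0.64 ± 0.11 on the log2 scale (edgeR adjusted p = 0.0107). The share of all tested genes called higher in LCDD, after adjustment, was 1.3%. Without adjustment, 22 members had an edgeR p under 0.05 in either direction. The share of all tested genes under 0.05 without adjustment is not given here, so this count and the later ones like it have no background. The 4 LCDD libraries lay wholly above the 4 DH-LMP2A libraries for 21 members, as they did for 4.74% of tested genes. Without DH-LMP2A 3, no member was called and 17 had an unadjusted p under 0.05 (Eif2ak2 0.61, edgeR adjusted p = 0.0504). Without LCDD 1, 7 members had an unadjusted p under 0.05 and the median was 0.57.

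WT 2 also entered this comparison, since the fit estimates each gene's spread from all 13 libraries. With WT 2 left out of the fit, 7 members were called higher in LCDD (Ifit1, Ifit3, Eif2ak2, Usp18, Gbp3, Xaf1 and Phf11d), against 1.59% of tested genes, while the median log2 fold change was 0.77. With the title code as a block and WT 2 kept, 3 members were called (Eif2ak2, Xaf1 and Ifi44), against 3.24% of tested genes. With the block and WT 2 left out, 24 were called, all higher in LCDD, against 4.22% of tested genes. With the libraries of code A, LCDD 1 among them, left out as well, 16 were called, against 4.18% of tested genes. These fits without WT 2 were added after the values had been seen. The median SE of a member was 0.39 with all libraries and 0.21 with the block and without WT 2. The members called with the block and without WT 2 spread over the role groups: Irf7; the sensors Ddx58 and Ifih1; Ifit1 and Ifit3; Oas1a, Oas2, Oas3, Oasl2 and Eif2ak2; Bst2 and Ifitm3; Usp18; the GTPases Gbp3, Gbp5, Irgm1 and Iigp1; Parp14; and Xaf1, Rtp4, Ifi27, Ifi35, Ifi44 and Phf11d. In that fit Usp18 was higher by 1.26 ± 0.25 (edgeR adjusted p = 0.0206), and Bst2 by 1.23 ± 0.25 (edgeR adjusted p = 0.0218).

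Xaf1, which promotes cell death by opposing XIAP, had the largest fold change of the 52. It was measured at 72.2, 108, 97.2 and 100.4 CPM in LCDD 1 to 4, 27.7, 28.5, 37 and 30.5 in DH-LMP2A 1 to 4, and 23.4, 91.1, 26.4, 27.9 and 26.4 in WT 1 to 5. LCDD 1 was its lowest LCDD library, unlike most members, and WT 2 lay within the LCDD range while the other WT libraries, at 23.4 to 27.9 CPM, overlapped the low end of DH-LMP2A. LCDD exceeded DH-LMP2A by 1.61 ± 0.38 on the log2 scale (edgeR adjusted p = 0.0515), by 1.62 ± 0.28 with the block (edgeR adjusted p = 0.0102), and by 1.60 ± 0.13 with WT 2 left out of the fit (edgeR adjusted p = 0.000131). Ifi44, whose protein forms microtubule-like structures, was at 105, 62.3, 46.3 and 44.6 CPM in LCDD 1 to 4, 41.6, 32.1, 35.9 and 28 in DH-LMP2A 1 to 4, and 60.2, 85.8, 54.7, 58.7 and 64.6 in WT 1 to 5. All LCDD libraries exceeded all DH-LMP2A libraries, and every DH-LMP2A library was below every WT library. The LCDD difference was 0.91 ± 0.25 (edgeR adjusted p = 0.091) and 0.87 ± 0.21 with the block (edgeR adjusted p = 0.0383).

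Ifit1 was higher in LCDD by 1.30 ± 0.49 on the log2 scale (edgeR adjusted p = 0.253), Isg15 by 1.06 ± 0.68 (edgeR adjusted p = 0.57) and Irf7 by 0.95 ± 0.93 (edgeR adjusted p = 0.74), with all libraries in the fit. Ddx58 was at 0.61 ± 0.18 (edgeR adjusted p = 0.108), and Stat2 at 0.33 ± 0.34 (edgeR adjusted p = 0.752). None of these was called. In the same fit Ifitm3, the most abundant member, was at 0.79 ± 0.39.

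By role, the median log2 fold change of LCDD over DH-LMP2A was 0.96 for the 10 other induced genes, 0.94 for the 4 IFIT genes, 0.90 for the OAS group and 0.82 for the ISG15 group. It was 0.79 for the Mx and membrane group, 0.73 for the sensors, 0.60 for the GTPases, 0.46 for the PARP group and 0.41 for the transcription factors. Parp12 (-0.07) and Trim25 (-0.01) were the 2 members with a negative value. Within single title codes, 52 members were higher in the LCDD pool of code A than in its DH-LMP2A pool (median 0.96 on the log2 scale), 49 in code B (median 0.98), 45 in code C (median 0.30) and 45 in code D (median 0.49). In all 4 codes 42 of 52 members were higher in LCDD. The share of all tested genes higher in all 4 codes is not given here, so this count has no background. Rsad2, Samd9l, Gbp2, Trim25 and Irgm2 were higher in 2 codes, and Parp12 in 1. More than 2-fold higher in LCDD were 25 members in code A (5.48% of all tested genes), 25 in code B (7.49%), 1 in code C (3.60%) and 7 in code D (4.78%). The 1 member in code C is a smaller share than that of all genes.

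**Figure D4:**
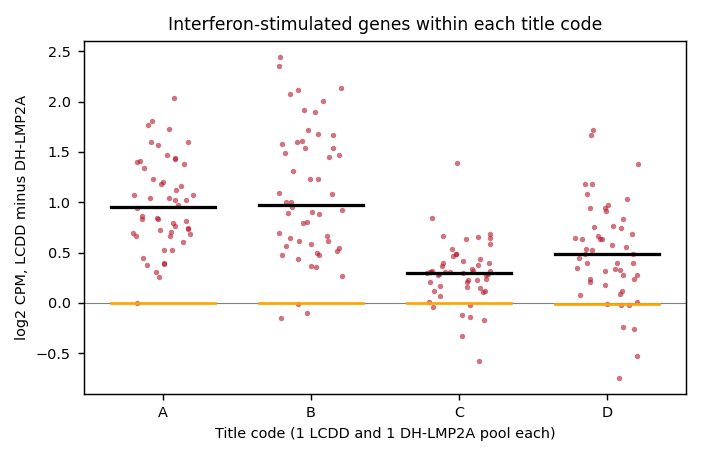
Each point is 1 of the 52 genes, plotted as log2 CPM in the LCDD pool minus log2 CPM in the DH-LMP2A pool of the same title code, 1 pool of each. Black bars mark member medians (0.96, 0.98, 0.30 and 0.49 from left to right) and orange bars the medians of all tested genes, which lie near 0.

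Some cell marker lists moved with the members in this comparison and others did not, and their part in it was not tested. Macrophage and monocyte markers, 11 genes, summed to 383 to 689 CPM in LCDD and 238 to 452 in DH-LMP2A, and all 11 had positive fold changes (median 0.69). T and NK cell markers, 12 genes, summed to 8.08 to 17.5 CPM in LCDD and 5.48 to 9.05 in DH-LMP2A, and 11 were positive (median 0.67). Mesangial markers summed to 3488 to 6575 CPM in LCDD and 2374 to 3177 in DH-LMP2A, without overlap. Glomerular endothelial markers summed to 4604 to 10558 CPM in LCDD and 3256 to 8725 in DH-LMP2A, and podocyte markers to 6728 to 28892 and 14933 to 29492. All 6 podocyte markers had negative fold changes, as had 6 of 7 tubule markers (median -0.55) and 4 of 6 B and plasma cell markers (median -0.22). Of the 4 neutrophil markers tested, 2 were negative. LCDD 1, high for many members, had the lowest podocyte sum and the highest macrophage sum of the 13 libraries. In bulk libraries more cells of a type and more RNA per cell cannot be told apart.

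Against WT, the result rested on WT 2. With all 5 WT libraries, no member was called between LCDD and WT by edgeR with genotype alone, where 1.84% of tested genes were called. In that fit 4 members had an unadjusted p under 0.05. DESeq2 called 3 members (Eif2ak2, Herc6 and Xaf1), among 726 genes called in all. In the edgeR fit the median log2 fold change was 0.16, with 35 members positive and 17 negative, and without LCDD 1 the median was -0.02. Without WT 2, 12 members were called, all higher in LCDD, against 1.78% of tested genes called higher. The median log2 fold change was then 0.65, 46 members were positive, and for 25 the 4 LCDD libraries lay wholly above the 4 WT libraries, as for 5.87% of tested genes. Leaving out WT 2 turned 12 members from lower to higher in LCDD and 1 from higher to lower, and made the SE smaller for 49 of 52. WT 2 was known beforehand to be high for these genes, so leaving it out was bound to raise most of their fold changes over WT. The counts without WT 2 are therefore descriptions and not tests. For all tested genes, whose shares stand beside them, WT 2 was not known to be high.

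The 12 genes called without WT 2 held 3 of the 4 transcription factors. Irf7 was higher in LCDD by 1.26 ± 0.25 on the log2 scale (edgeR adjusted p = 0.0242), where the value with WT 2 was -1.0 ± 0.89. Stat2 was higher by 0.69 ± 0.12 (edgeR adjusted p = 0.0126) and Irf9 by 0.66 ± 0.16 (edgeR adjusted p = 0.0476). Xaf1 had the largest value, 1.83 ± 0.14 (edgeR adjusted p = 3.21e-05). The others were Oas2 (1.77), Usp18 (1.28), Mx2 (1.21), Ifit3b (1.14), Gbp3 (1.09), Ifi27 (0.63), Ifi35 (0.60) and Adar (0.44). Isg15 was higher by 1.31 ± 0.33 and was not called (edgeR adjusted p = 0.0672). No sensor and no PARP gene was called in that fit. Eif2ak2, above WT in every LCDD library also with WT 2 included, was higher by 0.38 ± 0.10 with all libraries (edgeR adjusted p = 0.0922) and by 0.37 ± 0.10 without WT 2 (edgeR adjusted p = 0.0819).

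Within title codes the 2 WT pools gave opposite pictures. LCDD 1 exceeded WT 1 (code A) for 51 of 52 members, with a median of 1.07 on the log2 scale. LCDD 3 exceeded WT 2 (code C) for 4 members, with a median of -1.31. LCDD 4 exceeded the mean of the 3 single-mouse WT libraries (code D) for 38 members, with a median of 0.32. With the Y-linked level of each library as a covariate the median was -0.72 and 0 members were called by edgeR (22 had an unadjusted p under 0.05). Y-linked Ddx3y was at 8.2 to 100.2 CPM in LCDD, 24.8 to 85.1 in DH-LMP2A, 12.2 in WT 2 and 0 to 0.04 in the other WT libraries. Y-linked level and genotype are therefore largely confounded in the comparisons with WT, and without WT 2 they are confounded in full. The calls of LCDD against WT made without WT 2 cannot be told apart from a difference in Y-linked level. Within WT, the covariate cannot be told apart from the WT 2 difference.

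**Figure D5:**
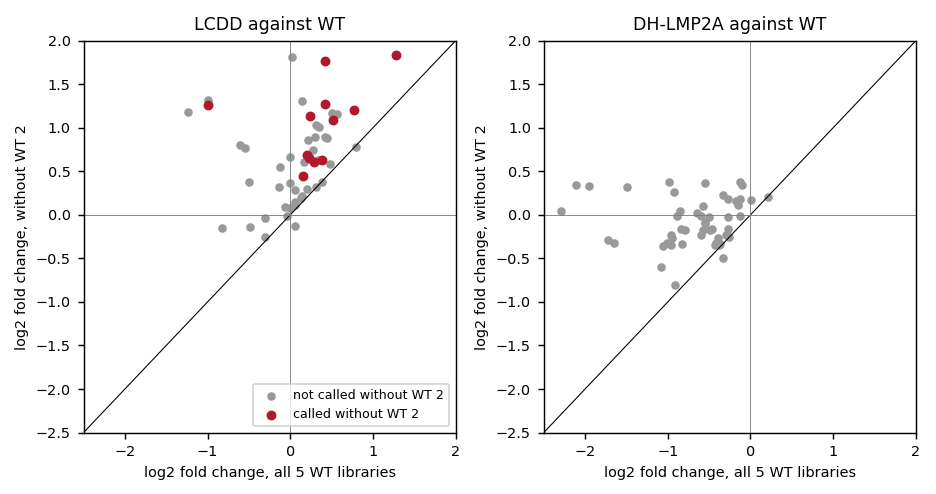
Each point is 1 of the 52 genes, with its log2 fold change over all 5 WT libraries on the x axis and without WT 2 on the y axis (diagonal line: equal values). Eif2ak2, Herc6 and Samd9l in the LCDD panel, and Samd9l in the DH-LMP2A panel, do not lie above the diagonal, and the 12 red points, called without WT 2, are all in the LCDD panel.

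Between DH-LMP2A and WT, no member was called by edgeR with genotype alone and all libraries, where 0.627% of tested genes were called. In that fit 11 members had an unadjusted p under 0.05. DESeq2 called 1 member (Ifi44, lower), among 458 genes called in all. In the edgeR fit the median log2 fold change was -0.55 and 50 members were negative. With the Y-linked level as a covariate, 4 members were called lower (Irf7, Zbp1, Ifit3 and Irgm2), among 36 genes called in all. In that fit 47 members had an unadjusted p under 0.05 and the member median was -1.80. Among WT libraries only WT 2 had a Y-linked level above traces, so within WT this covariate cannot be told apart from the WT 2 difference. The values of that fit are no separate result from those that include WT 2. Markers of other cells moved with this comparison too, and their part in it was not tested. All 11 macrophage and monocyte markers were negative (median -0.65), as were all 6 glomerular endothelial markers (median -0.72). So were all 6 B and plasma cell markers (median -0.78), all 5 mesangial markers and all 4 neutrophil markers tested. Of the T and NK cell markers, 9 of 12 were negative (median -0.86). Tubule markers went the other way, with 6 of 7 positive (median 0.73), and 3 of 6 podocyte markers were positive. These values include WT 2. Without it, the macrophage and monocyte markers summed to 439 to 502 CPM in WT, against 238 to 452 in DH-LMP2A. Without WT 2 the median was -0.13, with 33 members negative and 19 positive, no member was called by edgeR (6 had an unadjusted p under 0.05) and 0.528% of tested genes were. The difference WT 2 makes was large for Irf7 and Ifit3. Irf7 was at -1.95 ± 0.93 with WT 2 and 0.33 ± 0.25 without it, and Ifit3 at -1.65 ± 0.67 and -0.32 ± 0.25. Ifi44 changed less, from -0.91 ± 0.24 (edgeR adjusted p = 0.132) to -0.81 ± 0.24 (edgeR adjusted p = 0.171). Gbp5 and Parp9, like Ifi44, were lower in every DH-LMP2A library than in every WT library, which makes 3 of the 52 members. The share of all tested genes so placed is not given here, so this count has no background to be read against. This comparison shares its WT libraries with the one above and its DH-LMP2A libraries with the first, so the 3 sets of values are not independent.

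Upstream of the members, transcripts of the interferons themselves were almost absent. None of the 21 type I, II and III interferon genes passed the filter, and 18 had no count in any library. Ifnb1 had 1 count in all, Ifnz 2, and Ifng 19, with WT 2 the highest library at 0.309 CPM. Of 104 genes listed for the pathway beside the members, the interferons included, 82 were tested. None was called between LCDD and DH-LMP2A by edgeR with all libraries (19 had an unadjusted p under 0.05), and 3 were called higher in LCDD with the block (Ifngr2, Tmem173 and Sp100), a share of the 82 near the 3.24% of all tested genes called higher in that fit. Ifngr1, the ligand-binding chain of the interferon gamma receptor, was the one pathway gene called against WT by edgeR with genotype alone and all libraries. It was at 121, 99.8, 153 and 111 CPM in LCDD 1 to 4, 102, 78.8, 124 and 91.9 in DH-LMP2A 1 to 4, and 144, 241, 260.0, 282 and 201 in WT 1 to 5. Ifngr1 had a log2 fold change of -0.90 ± 0.20 in LCDD (edgeR adjusted p = 0.0397) and of -1.19 ± 0.20 in DH-LMP2A (edgeR adjusted p = 0.0222), and both calls held without WT 2. The call for LCDD was lost in 6 of 9 fits that left out 1 library (LCDD 1, 2 or 4, or WT 3, 4 or 5), with an edgeR adjusted p of up to 0.122. That for DH-LMP2A was lost in 4 of 9 (DH-LMP2A 2 or 4, or WT 3 or 4), with an edgeR adjusted p of up to 0.0888. The log2 fold change stayed between -1.03 and -0.80 in LCDD and between -1.31 and -1.09 in DH-LMP2A. WT 1, at 144 CPM, was lower than LCDD 3 at 153 CPM, so the LCDD and WT libraries overlapped. With the title code as a block, the interferon-induced genes Tnfsf10 and Ly6e were also called lower than WT, in LCDD and in DH-LMP2A. Gbp9 was called lower in DH-LMP2A in that fit. All genes called in the blocked fits are counted in the closing section.

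Ifnar1, the signalling chain of the type I receptor, was at 88.8 to 110 CPM in all 13 libraries. Ifnar2 was at 44.9 to 86.6 CPM, with LCDD 1 the highest library. Ifngr2 was at 65.5, 58.2, 43.6 and 59.8 CPM in LCDD 1 to 4, 49, 32.7, 33.9 and 34.1 in DH-LMP2A 1 to 4, and 49.5, 51.4, 35.5, 36.3 and 39.7 in WT 1 to 5. LCDD 3 lay below DH-LMP2A 1, and the other LCDD libraries lay above all DH-LMP2A libraries. The difference was 0.60 ± 0.18 on the log2 scale (edgeR adjusted p = 0.11) and 0.62 ± 0.14 with the block, which passed the threshold (edgeR adjusted p = 0.0335). Without WT 2, 4 further interferon-induced genes of the pathway list were called higher in LCDD than in WT (Sp100, Uba7, Oas1b and Parp10). With WT 2, edgeR called none of these, with genotype alone or with the block.

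Beside the WT 2 pattern, several immune cell markers were high in the same library, and their part in it was not tested. The complement genes C1qa, C1qb and C1qc were at 27.7, 31.9 and 28.2 CPM in WT 2 and at 0.921 to 1.84 in the other WT libraries. The summed level of the 11 macrophage and monocyte markers was 517 CPM in WT 2 and 439 to 502 in the other WT libraries, and Mrc1, the most abundant of them, was lower in WT 2 (190.3 CPM against 281 to 359). Neutrophil markers, 6 genes, summed to 52 CPM in WT 2 and 7.2 to 16 in the other WT libraries. T and NK cell markers summed to 27.7 CPM in WT 2 and 7.49 to 20.6 in the others. Siglech, the defining marker of plasmacytoid dendritic cells, a major source of type I interferon, was at or below 0.556 CPM in every library. The whole list of 7 markers for these cells summed to 188 CPM in WT 2 and 216 to 534 in the other WT libraries, and 2 of its genes, Klk1 at 62.6 and Tcf4 at 98.8 CPM, made up most of the sum in WT 2. B and plasma cell markers summed to 29.3 CPM in WT 2, within the 12.4 to 39.0 of the other WT libraries. Podocyte markers summed to 30744 CPM in WT 2, within the 14044 to 31533 of the other WT libraries. Glomerular endothelial markers summed to 6436 CPM in WT 2, below the 7608 to 10852 of the others. Ly6g, a neutrophil surface marker, was at 0.185 CPM in WT 2.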

How the data were processed

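Poly(A) RNA was sequenced from bead-purified glomeruli (13 libraries). The values are raw counts per gene as deposited by the authors, one table for all libraries. Per the submitters' processing notes the tools were STAR 2.4.0a, featureCounts, Subread 1.5.0-p3 and DESeq2, with mm10/GRCm38. The strand setting, treatment of multi-mapping reads and annotation are not given in the sources used here. Nothing in the labels says that all libraries of a genotype came from separate preparations, so p-values measure the spread between these libraries.

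From the counts, edgeR 4.0.16 (R 4.3.3) fitted genotype over all 13 libraries after filterByExpr with a minimum count of 10, which kept 16738 of 46958 genes, with TMM and Benjamini-Hochberg adjustment. CPM used TMM-effective library sizes. The script was tested on simulated data. None of the 22 pairs of libraries of one genotype agreed within sampling noise. LCDD and DH-LMP2A libraries of one title code deviated together (lowest correlation 0.153), and so did some of different codes. The blocked fit is given beside that comparison where it changes a call. Alternatives were DESeq2 1.42.0, RLE size factors, other filters, the title-code block, a Y-linked covariate, and libraries left out.

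The members and lists were chosen with earlier results of these data known. Genes were named by rule: the 2 members of highest mean CPM in each role group, called members, and Ifit1, Isg15, Irf7, Usp18 and Mx1. Others named were chosen after their values were seen. One item of the pathway list is not reported here.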

Additional observations from a re-analysis of the deposited data

Results flagged for a closer look

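In 19 of 87 sets of values tested (each a gene or the member median within a genotype), 1 library lay apart from the rest by Dixon's ratio of gap to range at the 95% level. Chance alone gives about 4.35, but that WT 2 is high was known beforehand and the genes share libraries, so the count is a description and not a test. WT 2 was that library, on the high side, in 14 of them. Its median log2 CPM over the 52 members was 6.38, against 5.09 to 5.31 in the other WT libraries. Its log2 CPM was 7.80 for Stat2, 6.70 for Ddx58, 8.0 for Ifit3, 7.38 for Adar, 7.27 for Oasl2, 9.51 for Ifitm3, 7.86 for Bst2, 8.72 for Lgals3bp, 7.55 for Ifi27, 6.05 for Ifit1, 5.82 for Isg15, 8.67 for Irf7 and 6.17 for Usp18. Irf1 lay apart in LCDD 1, at a log2 CPM of 6.95 against 6.34 to 6.41 in the other LCDD libraries. Adar lay apart in LCDD 4, at a log2 CPM of 6.52 against 6.72 to 6.74 in the other LCDD libraries. Ifit1 lay apart in DH-LMP2A 2, at a log2 CPM of 3.18 against 3.88 to 3.93 in the other DH-LMP2A libraries. Mx1 lay apart in DH-LMP2A 1, at a log2 CPM of 0.028 against -0.89 to -0.73 in the other DH-LMP2A libraries. Ifngr2 lay apart in DH-LMP2A 1, at a log2 CPM of 5.62 against 5.04 to 5.09 in the other DH-LMP2A libraries.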

How the results depend on the processing

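Genes called over all tested genes were 334 between LCDD and DH-LMP2A, 308 between LCDD and WT and 105 between DH-LMP2A and WT. The member median of LCDD against DH-LMP2A stayed positive under every alternative run, and which members passed the threshold depended on the fit. The comparisons with WT changed with WT 2. Low members such as Oas3, Mx1 and Zbp1 rest on few counts. Each value below is a count or a log2 fold change, and the cause of each shift was not tested. A number of members called that is printed without the genes called in the same fit has no background beside it. With DESeq2, the fit gave 812 genes called and 4 members called for LCDD against DH-LMP2A, and 726 genes called and 3 members called for LCDD against WT, and 458 genes called and 1 member called for DH-LMP2A against WT. The sign with DESeq2 changed in DH-LMP2A against WT for Parp12 (-0.0046). Without a filter on low counts, the fit gave 293 genes called and 2 members called for LCDD against DH-LMP2A. The sign without a filter on low counts changed in DH-LMP2A against WT for Parp12 (-0.010). With a filter at a mean of 5 CPM, the fit gave 153 genes called for LCDD against DH-LMP2A, and 116 genes called for LCDD against WT, and 54 genes called for DH-LMP2A against WT. With the Y-linked level as a covariate, the fit gave 366 genes called and 7 members called for LCDD against DH-LMP2A, and 23 genes called and a member median of -0.72 for LCDD against WT, and 36 genes called, 4 members called and a member median of -1.80 for DH-LMP2A against WT. Within WT this covariate cannot be told apart from the WT 2 difference. The sign with the Y-linked level as a covariate changed in LCDD against DH-LMP2A for Trim25 (0.048) and Parp12 (0.028), and in LCDD against WT for Stat2 (-0.84), Irf1 (-0.68), Ddx58 (-0.013), Ifih1 (-0.14), Adar (-0.62), Oasl2 (-1.03), Ifitm3 (-0.71), Bst2 (-0.97), Gbp7 (-0.34), Parp14 (-0.20), Lgals3bp (-0.63), Ifi27 (-0.29), Ifit1 (-0.86), Isg15 (-1.45), Usp18 (-0.96) and Ifnar2 (-0.16), and in DH-LMP2A against WT for Herc6 (-0.087) and Parp12 (-0.62). Without the libraries of code C, the fit gave 209 genes called and 3 members called for LCDD against DH-LMP2A, and 10 members called and a member median of 0.74 for LCDD against WT, and 24 genes called and a member median of -0.067 for DH-LMP2A against WT. The sign without the libraries of code C changed in LCDD against WT for Ifit2 (0.079), Ifit3 (1.0), Parp12 (0.10), Irf7 (1.39), Mx1 (1.03) and Ifi44 (0.25), and in DH-LMP2A against WT for Stat2 (0.28), Irf1 (0.020), Adar (0.14), Ifitm3 (0.032), Ifi27 (0.020), Isg15 (0.17), Irf7 (0.26) and Xaf1 (0.15). With WT 2 left out of the fit, the fit gave 426 genes called and 7 members called for LCDD against DH-LMP2A. With only the compared genotypes in the fit, the fit gave 213 genes called and 2 members called for LCDD against DH-LMP2A, and 185 genes called for LCDD against WT, and 1 member called for DH-LMP2A against WT. The sign with only the compared genotypes in the fit changed in DH-LMP2A against WT for Parp12 (-0.0050). Without the single-mouse WT libraries, the fit gave 54 genes called for LCDD against WT, and 69 genes called and a member median of -1.06 for DH-LMP2A against WT. The sign without the single-mouse WT libraries changed in LCDD against WT for Stat2 (-0.32), Irf1 (-0.30), Adar (-0.22), Oasl2 (-0.41), Ifitm3 (-0.26), Bst2 (-0.45), Lgals3bp (-0.065), Ifit1 (-0.34), Isg15 (-0.76), Usp18 (-0.33) and Ifnar2 (-0.15), and in DH-LMP2A against WT for Parp12 (-0.16). With RLE size factors, the sign changed in DH-LMP2A against WT for Parp12 (-0.0048).

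Between LCDD and DH-LMP2A every same-code correlation was over 0.1, while with WT the lowest were -0.16 (LCDD) and -0.16 (DH-LMP2A). The codes were not the only pairing. LCDD 2 had a higher correlation with DH-LMP2A 1 (0.524) than with DH-LMP2A 2 of its own code (0.153). The fits with the block that also leave libraries out were added after the data were seen. With the title code as a block, the fit gave 1021 genes called and 3 members called for LCDD against DH-LMP2A, and 536 genes called and 2 members called for LCDD against WT, and 562 genes called and 1 member called for DH-LMP2A against WT. The sign with the title code as a block changed in LCDD against WT for Ifit2 (0.014). With the block and without WT 2, the fit gave 1302 genes called and 24 members called for LCDD against DH-LMP2A, and 603 genes called, 7 members called and a member median of 0.65 for LCDD against WT, and 264 genes called and a member median of -0.13 for DH-LMP2A against WT. The sign with the block and without WT 2 changed in LCDD against WT for Ifit2 (0.085), Ifit3 (0.71), Parp12 (0.16), Irf7 (1.12) and Mx1 (0.93), and in DH-LMP2A against WT for Stat2 (0.41), Irf1 (0.068), Ddx58 (0.071), Adar (0.11), Ifi27 (0.11), Isg15 (0.11), Irf7 (0.19) and Xaf1 (0.19). With the block and without WT 2 and code A, the fit gave 1218 genes called and 16 members called for LCDD against DH-LMP2A. With the block and without code A, the fit gave 670 genes called and 3 members called for LCDD against DH-LMP2A.

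With each replicate left out in turn, LCDD against DH-LMP2A gave 113 to 484 genes called (lowest without DH-LMP2A 2, highest without DH-LMP2A 1). LCDD against DH-LMP2A gave 0 to 1 members called (lowest without DH-LMP2A 3). LCDD against WT gave 159 to 441 genes called (lowest without WT 4, highest without WT 1). LCDD against WT gave 0 to 12 members called (highest without WT 2). LCDD against WT gave -0.020 to 0.65 as the member median (lowest without LCDD 1, highest without WT 2). DH-LMP2A against WT gave 29 to 407 genes called (lowest without DH-LMP2A 2, highest without WT 1). DH-LMP2A against WT gave -0.74 to -0.13 as the member median (lowest without DH-LMP2A 1, highest without WT 2). Signs also changed between left-out replicates, as these ranges of log2 fold changes show. For LCDD against DH-LMP2A, they were Trim25 (-0.060 to 0.054) and Irgm2 (-0.024 to 0.40). For LCDD against WT, they were Irf1 (-0.10 to 0.29), Ifit2 (-0.15 to 0.023), Ifit3 (-0.79 to 0.77), Bst2 (-0.018 to 1.03), Gbp7 (-0.090 to 0.12), Parp12 (-0.16 to 0.091), Isg15 (-0.16 to 1.31), Irf7 (-1.29 to 1.26), Mx1 (-0.88 to 0.80), Ifi44 (-0.34 to 0.14) and Ifnar2 (-0.047 to 0.16). For DH-LMP2A against WT, they were Stat2 (-0.25 to 0.37), Adar (-0.22 to 0.18), Oasl2 (-0.81 to 0.022), Parp12 (-0.092 to 0.17), Ifi27 (-0.26 to 0.11), Isg15 (-1.15 to 0.27), Irf7 (-2.23 to 0.33) and Xaf1 (-0.47 to 0.23).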
